A study of Mus musculus with 5 samples.

Results

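The genes described here are 8 enzymes that clear aldehydes and other carbonyl compounds, out of 55487 genes in the count table: the aldehyde dehydrogenases Aldh3b1, Aldh2, Aldh9a1 and Aldh3a2, the aldo-keto reductases Akr1b3, Akr1a1 and Akr1b8, and the carbonyl reductase Cbr1. The members were chosen by measured counts, because Aldh3b1 and Akr1b3 had higher counts in the libraries labelled KO, so the genotype difference of these 2 genes chose the members and is given below as a description, without a test. The counts come from RNAseq of aortic macrophages, sorted from male mice after 8 weeks on chow and 10 weeks on a Western diet, which is high in fat and cholesterol. There were 2 libraries of Zeb1WT/ApoeKO mice, labelled WT, and 3 of Zeb1∆M/ApoeKO mice, labelled KO.

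All mice of both genotypes lacked Apoe (Apoe(-/-)), the apolipoprotein that helps to clear lipoproteins from blood, and both carried Zeb1 fl/fl, with loxP sites around exon 6 of Zeb1. The Zeb1∆M/ApoeKO mice also carried LysM Cre, which is expressed from the endogenous Lyz2 promoter and so acts in macrophages, neutrophils and other myeloid cells. The gate took viable CD45+ cells that carried the macrophage surface protein encoded by Adgre1, to which the study's methods add CD11b+. Adgre1 was counted in every library, from 1068 to 38190 counts, as was Ptprc, which encodes CD45, from 475 to 44796. Itgam, which encodes CD11b, had 441 and 3074 counts in WT and 0, 33 and 1988 in KO. According to those methods, the cells of 3 mice were pooled per genotype and condition, and replicates throughout the study were independent mice or cells. The labels do not tie a library to its mice, so p-values measure the spread between these libraries, and how much of it is technical was not tested.

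Aldehydes form in cells when the fatty acids of oxidised lipoproteins break down and when sugars are in excess. Aldehyde dehydrogenases oxidise them to acids, whereas aldo-keto reductases and carbonyl reductases reduce them to alcohols, mostly with NADPH. In atherosclerotic plaques, macrophages take up oxidised lipoproteins and so meet reactive aldehydes such as hydroxynonenal, a substrate of several of these enzymes.

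In these libraries the 8 genes were either well counted or hardly counted at all. Of the 40 combinations of a gene and a library, 16 held 195 counts or more and the remaining ones 13 or fewer. A gene with 3 counts or fewer was treated as not detectable, and 21 combinations exceeded that floor. Values are therefore given library by library. With TMM, a normalisation for composition, Aldh3b1 was the 1 gene of the 8 whose libraries did not overlap between the genotypes, being higher in KO, and 0 of the 8 were lower without overlap. Of the 7905 genes that passed the filter on low counts, 6.68% had every KO library above every WT library and 4.54% had every KO library below. Akr1b3, the other gene that chose the list, overlapped. Akr1a1 was lower in KO without overlap under 3 other scalings, as described below, which put 4.29% to 5.64% of all genes tested in that class.

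Total counts ranged from 20118545 to 50649912 per library, and 3 counts corresponded to between 0.0597 and 0.248 CPM (counts relative to library size, after TMM normalisation). These limits cover counting error only, because amplified reads are not independent molecules. Zeb1 had 0 counts in 4 libraries and 22 in KO replicate 1, so it did not check the genotype labels, and Lyz2 was high in every library, at 13335 to 22555 CPM. Apoe had 48 and 31 counts in WT and 86, 0 and 4 in KO. KO replicate 1 stood apart. It had 3 of 10 macrophage markers at 100 counts or more, against 7 to 9 in the other libraries, and its 4 erythroid genes summed to 16147 CPM, against 0 to 2.72 CPM elsewhere. This library also had 16423 genes above 3 counts, against 5009 to 6931 elsewhere, and a TMM factor of 0.515, against 1.03 to 1.42. A lower factor gives a higher CPM. B cell and smooth muscle markers stayed under 100 counts in every library, with Acta2 and Tagln at 0 throughout. The 8 T cell markers summed to 8.15 and 6500 CPM in the WT libraries and to 2.31, 495 and 1699 CPM in the KO libraries, although the gate was for macrophages. The 8 neutrophil genes summed to 139 to 2737 CPM, lowest in KO replicate 3. Dendritic cell, endothelial and fibroblast markers each summed to 444 CPM or less in every library, and Cdh5, Tek and Lum were at 0 throughout. Single genes of these lists were well counted in 1 or 2 libraries each: Dcn with 19005 counts in KO replicate 2, Cd209a with 21805 in KO replicate 3, Kdr with 1455 in WT replicate 1, and Pecam1 with 2487 in WT replicate 2 and 2628 in KO replicate 3.

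**Figure D1:**
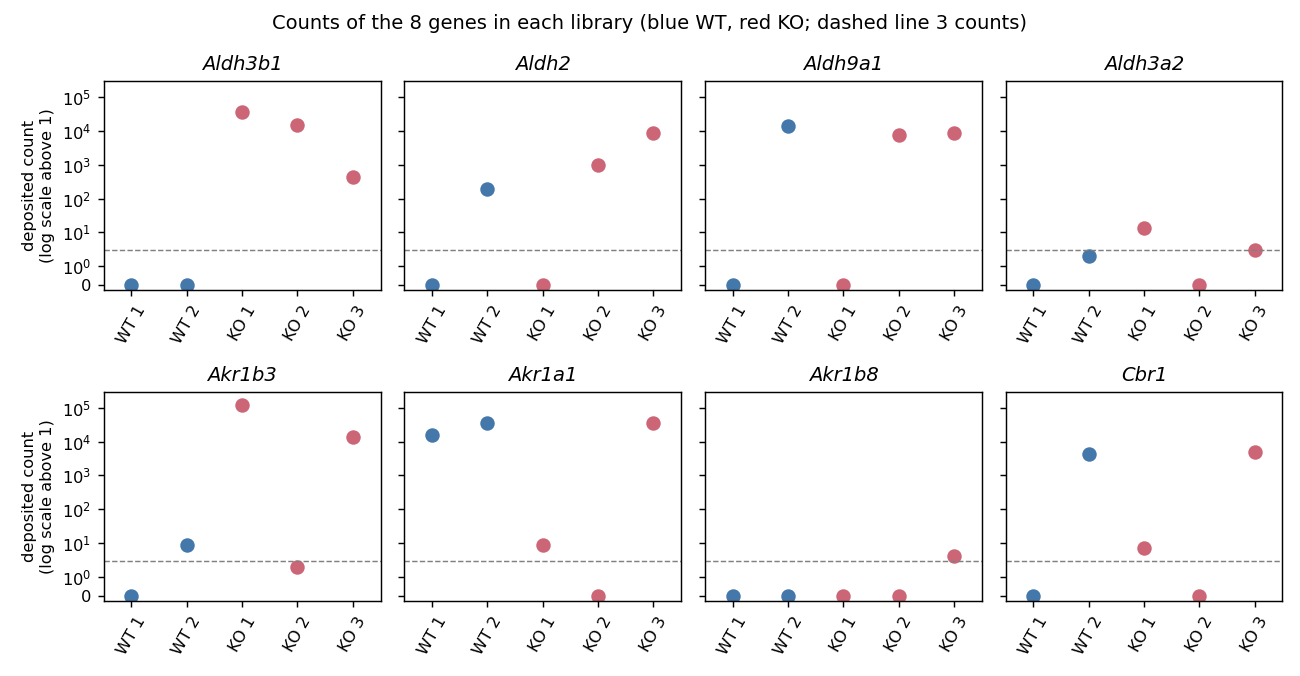
Deposited counts of the 8 genes (vertical axis, log scale above 1 count, with 0 at the base) in the 2 WT libraries (blue) and 3 KO libraries (red), 1 point per library, with a dashed line at 3 counts. Aldh3b1 is at 0 in both WT libraries and at 434 counts or more in all KO libraries, and the points of the 2 genotypes overlap for the other 7 genes.

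Aldh3b1 (ENSMUSG00000024885.9) encodes an aldehyde dehydrogenase that oxidises medium- and long-chain fatty aldehydes. The gene lies on chromosome 19 of GRCm38, from 3913491 to 3929808 on the minus strand. It had 0 counts in both WT libraries. The KO libraries had 36834, 15008 and 434 counts, which were 3039, 351 and 8.64 CPM. All 3 KO libraries were thus above both WT libraries, but KO replicate 1 was 352-fold above KO replicate 3, a span within 1 genotype that was 175-fold with library totals alone, 1266-fold with RLE and 10584-fold with upper-quartile factors. Of its 75-base words, 2.89% also occur in its paralogs Aldh3b2 and Aldh3b3, which had 10 counts or fewer in every library.

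The KO mean of Aldh3b1 was 1133 ± 1660 CPM (SD, n = 3), with TMM at least 11581-fold above 3 counts in the WT libraries. The bound depended on the scaling, at 5445-fold with library totals alone, 7449-fold with upper-quartile factors and 23326-fold with RLE. With TMM and without KO replicate 1, the library with the erythroid genes and few macrophage markers, the mean was at least 1838-fold above them. The part of these markers in the result was not tested, and in bulk RNA fewer cells that express a gene and less RNA per cell cannot be told apart.

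ZEB1 binds to E-boxes, and the word CACCTG is a form that it is known to bind. The RefSeq promoter of Aldh3b1 is printed because it is the gene that did not overlap between genotypes and the only one of 6 matched promoters that holds this word on either strand. It covers 250 bases before to 50 bases after the start site in GRCm38.p6, chr19:3929729-3930028 on the minus strand, with the E-box in capitals:
Aldh3b1 promoter: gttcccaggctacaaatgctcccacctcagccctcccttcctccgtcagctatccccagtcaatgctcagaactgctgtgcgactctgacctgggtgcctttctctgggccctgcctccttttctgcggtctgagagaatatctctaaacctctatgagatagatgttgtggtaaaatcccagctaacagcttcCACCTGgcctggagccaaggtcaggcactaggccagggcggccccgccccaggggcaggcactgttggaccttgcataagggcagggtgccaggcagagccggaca

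The word begins at position -56 from the start site. It occurs in 20.2% of 32851 promoters of the same length, so its presence in 1 of 6 is near that share. Promoters of Aldh2 and Akr1b3 were not matched. The word TGACNNNGC, the core of the antioxidant response element to which NRF2 binds, was found on either strand in the promoter of Aldh9a1 alone, against 12.4% of all promoters. A match describes letters in a window and not a bound site.

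Akr1b3 (ENSMUSG00000001642.18; chromosome 6, 34302434 to 34317478, minus strand) encodes aldose reductase, which reduces glucose to sorbitol and also reduces lipid aldehydes. It had 0 and 9 counts in the WT libraries. Its KO counts were 118744, 2 and 13742, or 9798, 0.0468 and 274 CPM. KO replicates 1 and 3 were high, but KO replicate 2 lay below WT replicate 2, so the genotypes overlapped for the gene that helped to choose the list.

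The KO mean of Akr1b3 was 3357 ± 5580 CPM (SD, n = 3) and the WT mean 0.131 ± 0.185 CPM (SD, n = 2). Their ratio was 25711, and 1047 without KO replicate 1, and the WT mean under it rests on the 9 counts of WT replicate 2. The ratio was 12829 with library totals alone, 103078 with RLE and 875482 with upper-quartile factors. Of the 75-base words of Akr1b3 transcripts, 12.1% also occur in other genes, so part of its reads could be assigned either way. The gene sharing most of them, Gm38056, had 6692 and 878 counts in KO replicates 1 and 3 and 0 in the other libraries, which was 5.64% and 6.39% of the Akr1b3 count. The counts of Gm38056 were thus found in the libraries where Akr1b3 was high.

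Akr1a1 (ENSMUSG00000028692.14; chromosome 4, 116636510 to 116651680, minus strand) encodes aldehyde reductase, which acts on a broad range of aldehydes and in the formation of ascorbate in mice. Of the 8 genes it was the one well counted in both WT libraries, with 15233 and 35798 counts. The KO libraries had 9, 0 and 35205 counts. KO replicate 3 was as high as the WT libraries, whereas KO replicates 1 and 2 had almost no reads of the gene.

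In CPM, Akr1a1 averaged 795 ± 345 (SD, n = 2) in WT and 234 ± 404 (SD, n = 3) in KO. The log2 fold change was -1.77 with a standard error of 3.29 (adjusted p = 1 over 7905 genes, from the quasi-likelihood test of edgeR and the Benjamini-Hochberg method). With TMM, KO replicate 3 lay at 701 CPM between WT replicates 1 and 2 at 552 and 1039 CPM. Scaled by library totals alone, it lay at 725 CPM, below WT replicate 1 at 782 CPM, so whether the genotypes overlapped depended on the scaling. The same change occurred with RLE and upper-quartile factors. The log2 fold change was -10.85 without KO replicate 3, the only KO library with more than 9 counts of the gene. It was -6.46 with upper-quartile factors and -7.21 with limma-voom.

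Aldh9a1 (ENSMUSG00000026687.14; chromosome 1, 167349991 to 167368532, plus strand) oxidises an aldehyde intermediate of carnitine synthesis. Its WT libraries had 0 and 14014 counts. The KO libraries had 0, 7486 and 8581 counts. Each genotype thus held a library without any read of the gene, and the 3 libraries with reads were at 407, 175 and 171 CPM.

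The Aldh9a1 mean was 203 ± 288 CPM (SD, n = 2) in WT and 115 ± 99.9 CPM (SD, n = 3) in KO, and the log2 fold change of -0.82 (standard error 4.21) was not past the test (edgeR adjusted p = 1). Without WT replicate 2 it was 14.98, a value that depends on the prior count of the fit because the remaining WT library was at 0. Without KO replicate 1 it was -0.28. The same 3 libraries, WT replicate 2 and KO replicates 2 and 3, had 4 to 8 of the 8 T cell markers at 100 counts or more, while WT replicate 1 and KO replicate 1 had 1 and 0. This pattern was not particular to T cell genes. Cd68 of the macrophage list had 0 and 44664 counts in WT and 10, 36172 and 46735 in KO. Csf3r of the neutrophil list had 33 and 7309 counts in WT and 15, 17767 and 4976 in KO. The part of any cell type's RNA in the levels of Aldh9a1 was not tested.

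Aldh2 (ENSMUSG00000029455.14; chromosome 5, 121566027 to 121593824, minus strand) is the mitochondrial enzyme that oxidises acetaldehyde and hydroxynonenal. It was counted in the same 3 libraries as Aldh9a1, with 0 and 195 counts in WT and 0, 991 and 8732 counts in KO. The highest value, in KO replicate 3, was 174 CPM, and WT replicate 2 had 5.66 CPM. KO replicate 1 was at 0 like WT replicate 1, so the genotypes overlapped. Without KO replicate 1 they did not overlap, as was then so, in the same direction, for 13.1% of all genes tested.

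The mean of Aldh2 was 2.83 ± 4.0 CPM (SD, n = 2) in WT and 65.7 ± 94.4 CPM (SD, n = 3) in KO. The log2 fold change was 4.53 with a standard error of 6.07 (edgeR adjusted p = 1). It was 14.18 without WT replicate 2, where the remaining WT library was at 0, and 2.03 without KO replicate 3. An antisense gene, Gm42879, shares 130 exon bases with Aldh2, and it had 3 counts in KO replicate 1 and 0 in the other libraries.

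Cbr1 (ENSMUSG00000051483.9; chromosome 16, 93605853 to 93610505, plus strand) encodes a carbonyl reductase that acts on quinones, prostaglandins and lipid aldehydes. It had 0 and 4300 counts in WT and 7, 0 and 4914 counts in KO. Both genotypes thus held 1 library with many reads, at 125 CPM in WT replicate 2 and 97.8 CPM in KO replicate 3, and the remaining libraries had 7 counts or fewer. The log2 fold change of -0.93 had a standard error of 4.86 (edgeR adjusted p = 1), and it was 13.17 without WT replicate 2.

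Aldh3a2 (ENSMUSG00000010025.19; chromosome 11, 61223417 to 61267464, minus strand) encodes the fatty aldehyde dehydrogenase of the endoplasmic reticulum. It had 0 and 2 counts in WT and 13, 0 and 3 counts in KO. Akr1b8 (ENSMUSG00000029762.6; chromosome 6, 34354119 to 34368463, plus strand), a reductase related to aldose reductase, begins 36640 bases beyond the end of Akr1b3. It had 4 counts in KO replicate 3 and 0 in the other 4 libraries. Both genes failed the filter on low counts and were not tested, and at this depth no genotype difference was detectable for them.

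Of the 8 genes, 6 passed the filter. Leaving aside Aldh3b1 and Akr1b3, edgeR called 0 of the remaining 4 at an adjusted p under 0.05, and 0 of these 4 had an unadjusted p under 0.05. DESeq2, which gave an adjusted p for 2 of them, and limma-voom also called 0. Over all 7905 genes edgeR called 0 (0%), with 86 at an unadjusted p under 0.05, and limma-voom called 234 (2.96%). DESeq2 was run on the whole table without the filter on low counts, and called 790 (12.1% of the 6519 genes with an adjusted p). The standard errors of the 4 genes, between 3.29 and 6.07 on the log2 scale, were in each case larger than the gene's own difference. Standard errors were computed from the log2 fold change and the F statistic of the edgeR test, so this restates that test.

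**Figure D2:**
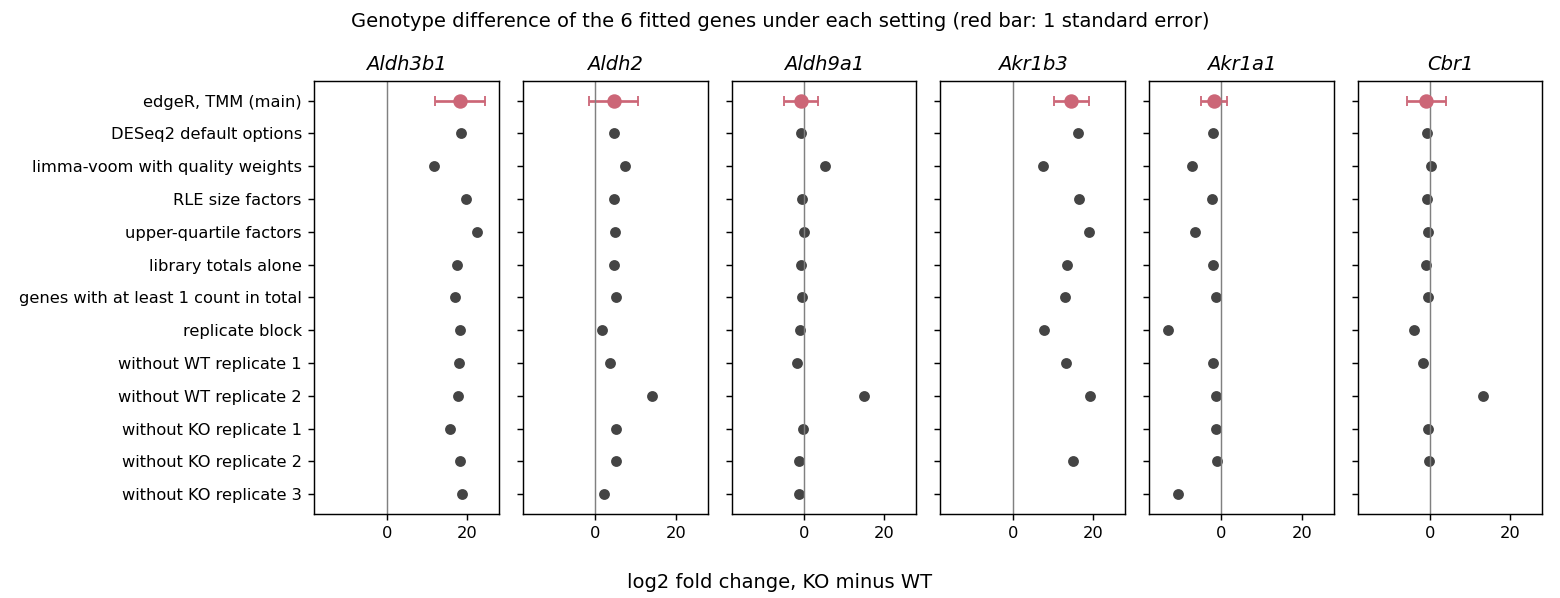
Log2 fold change, KO minus WT (horizontal axis), of the 6 genes that passed the filter under each setting (vertical axis), with 1 point per setting and a red bar of 1 standard error for the edgeR fit with TMM. Aldh3b1 and Akr1b3, which chose the list, lie to the right of 0 in every setting that gave a value, Aldh9a1 and Cbr1 lie on both sides of 0, and a missing point means that the gene did not pass the filter there.

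Levels of different genes were compared per length of exon, as counts per kilobase scaled to the same total in each library (TPM). In WT, Akr1a1 was highest at 727 ± 272 TPM (SD, n = 2), and its lowest library, at 535 TPM, lay above the highest library of the next gene, Aldh9a1, at 292 TPM. Below Akr1a1, the ranges of all neighbours in the order Aldh9a1, Cbr1, Aldh2, Akr1b3, Aldh3a2 overlapped, and Aldh3b1 and Akr1b8 were at 0. In KO the order of the means began with Aldh3b1 at 575 ± 648 TPM (SD, n = 3), Akr1b3 at 360 ± 563 TPM and Akr1a1 at 186 ± 322 TPM, and every pair of neighbours overlapped.

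The summed level of the 8 genes was 535 and 1332 TPM in WT and 2291, 577 and 908 TPM in KO, so the genotypes overlapped in the sum. The gene that led the sum also differed between libraries. Akr1a1 led in both WT libraries and in KO replicate 3, at 558 TPM, whereas Aldh3b1 led in KO replicates 1 and 2, at 1282 and 435 TPM. In KO replicate 1, Akr1b3 added 1009 TPM, and the other 6 genes together stayed under 1 TPM. KO replicate 3 was the broadest, with 7 of the 8 genes above 3 counts, and WT replicate 1 the narrowest, with 1 gene. They were also the libraries with the most and the fewest total counts, 50649912 and 20118545.

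**Figure D3:**
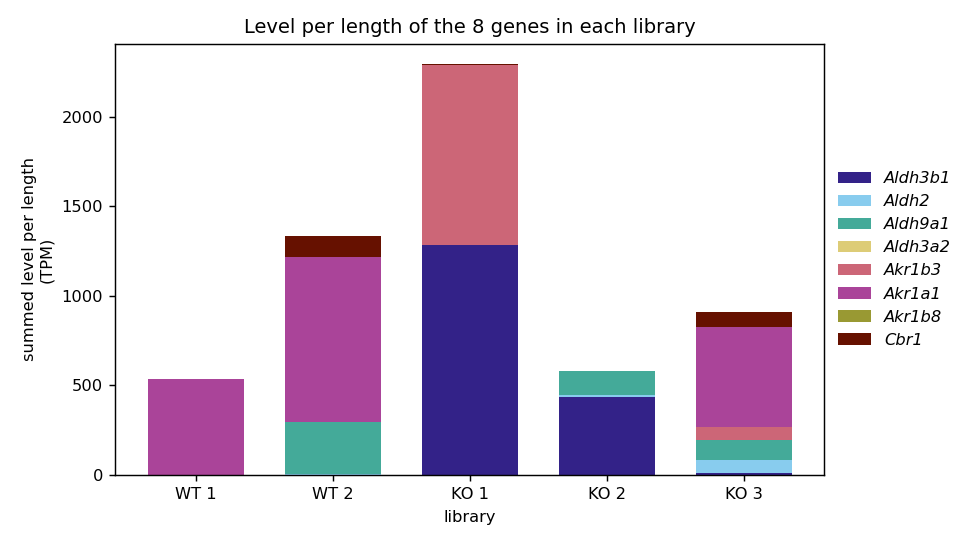
Level per length of the 8 genes in TPM (vertical axis, from 0), stacked for each of the 5 libraries, with 1 colour per gene. WT replicates 1 and 2 and KO replicate 3 are led by Akr1a1, and KO replicates 1 and 2 by Aldh3b1, with Akr1b3 next in KO replicate 1.

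Counting in some libraries and not in others was common to the table. Among the 7905 genes tested, 36.7% exceeded 3 counts in 2 libraries, 29.6% in 3, 19.9% in 4 and 13.7% in all 5. Of the 6 tested members, 5 did so in 3 libraries and Akr1a1 in 4. None of the 8 genes exceeded 3 counts in all 5 libraries.

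A list of 58 further genes of carbonyl and redox metabolism, chosen with earlier results of these data known, set the 8 genes beside the rest of the pathway. Of the 58, 25 passed the filter, 29 had fewer than 100 counts in every library and 10 had 0 counts throughout, among them Aldh1a1 and Aldh3a1, known for retinal and aromatic aldehydes, and Nqo1, a quinone reductase. edgeR called 0 of the 25, 1 had an unadjusted p under 0.05, DESeq2 called 4 of the 17 list genes to which it gave an adjusted p (23.5%, against 12.1% of all genes) and limma-voom 2 of 25 (8.0%, against 2.96%). The fitted difference was above 0 for 15 of the 25 (60.0%), against 60.9% of all genes tested, and its median was 0.46 on the log2 scale, against 0.78 over all genes tested.

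Between genotypes, 1 of the 25 genes had every KO library above every WT library and 1 every KO library below, against the 6.68% and 4.54% of all genes given above. The gene that was lower was Dhrs1, a short-chain dehydrogenase/reductase, with 2470 and 5227 counts in WT and 0, 0 and 0 in KO. The WT libraries were at 89.4 and 152 CPM, and their mean lay at least 958-fold above 3 counts in KO with TMM, or 494-fold to 1560-fold with the other scalings (edgeR adjusted p = 1). The gene that was higher was Ptgr2, which reduces a keto-prostaglandin, with 8 and 0 counts in WT and 18, 2827 and 8880 in KO (log2 fold change 9.10, standard error 7.56, edgeR adjusted p = 1). DESeq2 called Dhrs1, Adh5, Cbr4 and Hmox1 of the list, and limma-voom Dhrs1 and Ptgr2. Adh5, Cbr4 and Hmox1 each had 100 counts or more in 1 library only, and Adh5 had not passed the filter on low counts. Adh5 had 3 and 7090 counts in WT and 0 in every KO library. Cbr4 had 1 and 0 counts in WT and 29, 1 and 6510 in KO, and Hmox1 had 0 and 0 in WT and 17, 4262 and 0 in KO. The lowest KO library of Ptgr2 had 1.49 CPM and its highest WT library 0.29 CPM.

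Among the regulators, Nfe2l2, which encodes NRF2, had 37618 and 1620 counts in WT and 10, 16 and 4781 in KO, and Keap1, which keeps NRF2 low, had 3 and 2013 counts in WT and 20, 12 and 3 in KO. Both overlapped between genotypes. Glo1, which clears methylglyoxal, had 184 and 885 counts in WT and 13, 1677 and 22463 in KO, and Park7 had 15961 and 900 counts in WT and 57265, 20504 and 13918 in KO. These 4 genes, and the 3 examples at 0, were named after their values were seen.

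**Figure D4:**
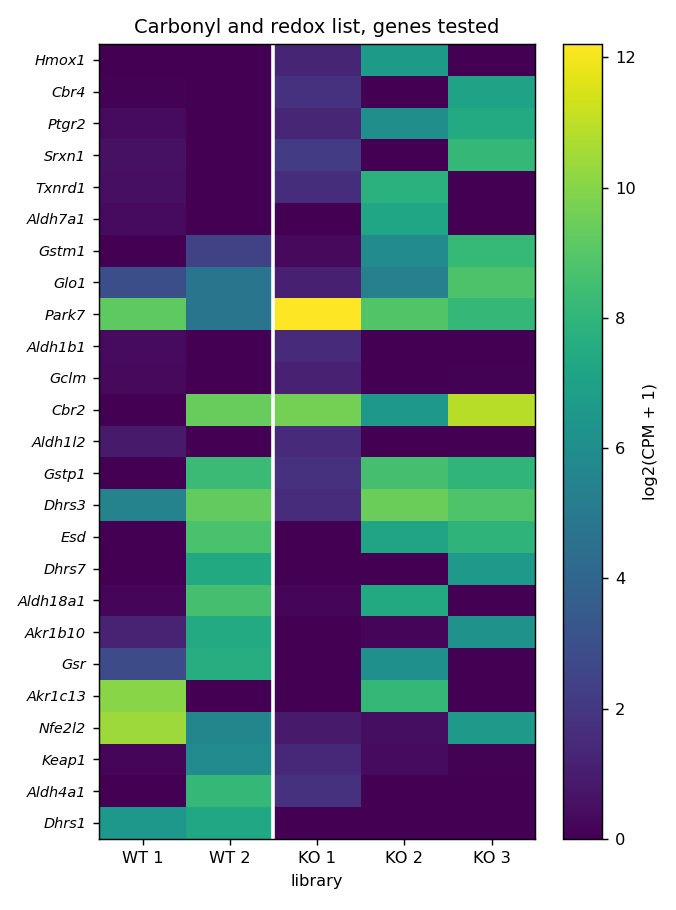
Levels of the 25 tested genes of the carbonyl and redox list as log2(CPM + 1) (colour), with 1 row per gene, ordered by fitted KO minus WT difference, and 1 column per library, the 2 WT libraries to the left of the white line and the 3 KO libraries to the right. Most rows are bright in some libraries of a genotype and dark in others, and Dhrs1, at the bottom, is bright in both WT libraries and dark in all KO libraries.

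The genes with the most similar levels were found by the root mean square difference of log2 CPM over the 5 libraries. For Aldh3b1 these were Fkbp2, a peptidyl-prolyl isomerase of the endoplasmic reticulum, at 1.38, Cct8, a chaperonin subunit, at 1.78, and Trappc3, a vesicle tether subunit, at 1.83. Fkbp2 had 0 and 0 counts in WT and 58914, 14868 and 3533 in KO. For Akr1b3 they were Rnf169 at 1.08, Gm12250 at 1.19 and Cdk11b at 1.51. Rnf169 had 1 and 4 counts in WT and 34332, 2 and 6107 in KO, which was high in the same 2 libraries as Akr1b3.

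For the other 4 tested genes, the nearest were Lbh for Aldh2 (0.26), Esd for Aldh9a1 (0.27), Ifit3 for Akr1a1 (1.02) and Sh2d1b1 for Cbr1 (0.18). Esd, which completes the oxidation of formaldehyde and is in the list of 58, had 0 and 14332 counts in WT and 0, 5984 and 12226 in KO. With 5 libraries and 7905 genes, likeness of this kind is a description of these libraries.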

How the data were processed

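RNAseq of sorted aortic macrophages was analysed in 2 WT and 3 KO libraries, grouped by the genotype in their labels. Per the submitters' processing notes and the study's methods, the authors aligned reads to GRCm38 with STAR 2.5.3a and quantified genes with RSEM 1.3.0 and GENCODE mouse annotation. The deposited values are expected counts per gene, given as whole numbers without normalization. Because RSEM divides reads that match several genes, paralogs and pseudogenes share counts. The amplification of an ultra-low-input kit can turn a few molecules into many reads.

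The members, gene lists and tests were chosen with earlier results of these data known. Counts of 55487 genes were analysed with edgeR 4.0.16 (R 4.3.3). filterByExpr (minimum count 10) left 7905 genes, normalised with TMM, and the quasi-likelihood test compared KO with WT without covariates, with Benjamini-Hochberg adjustment over all genes tested and a threshold of 0.05. The script was tested on simulated counts, with a pass mark set only for a dispersion far below the common dispersion of 6.44 in these data. That check does not show how many changes the fit could find here. Log2 CPM used a prior count of 2. TPM used exon lengths of GENCODE M21 on GRCm38, which matched 55227 identifiers without their version, and is not the authors' TPM. A fold against a genotype at 0 was computed against 3 counts per library. Shared words were 75 bases, the read length. Promoters are from RefSeq.

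Named genes were the 8 members, Zeb1, Lyz2 and Apoe, tested list genes without overlap between genotypes, and the nearest genes, 3 each for Aldh3b1 and Akr1b3 and 1 for each other tested member. The markers, the genes sharing sequence with a member, the list genes called by DESeq2 and the 7 genes said to be so in the text fall outside this rule. Alternatives were DESeq2 1.42.0, the tool of the study's methods, limma-voom 3.58.1 with quality weights, other scalings and filters, a replicate block and each library left out. DESeq2 was run on all genes of the count table, without filterByExpr.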

Additional observations from a re-analysis of the deposited data

How the results depend on the processing

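The count of genes called was 0 under edgeR with every scaling, filter and left-out library tried, and 790 with DESeq2 and 234 with limma-voom. Of the members, each of these tools counted 1, Aldh3b1, whose difference chose the list, so this count is no test of it. Of the list genes with an adjusted p they called 4 of 17 (23.5%) and 2 of 25 (8.0%), against 12.1% and 2.96% of all genes. Members without overlap and lower in KO numbered 1 (Akr1a1) in place of 0 with RLE factors, upper-quartile factors or library totals alone, against 4.29%, 4.91% and 5.64% of all 7905 genes. With upper-quartile factors, list genes without overlap numbered 2 higher and 3 lower, in place of 1 and 1, against 5.95% and 4.91% of all genes. Leaving out 1 library at a time gave 1 to 2 members without overlap that were higher in KO and 0 to 3 lower, and 3 to 4 list genes higher and 1 to 8 lower, where fewer libraries make overlap rarer by construction. Over all 7905 genes these settings gave 11.5% to 17.4% higher and 7.46% to 26.2% lower, the last without WT replicate 1, where 3 members and 8 list genes were lower. Akr1b3 no longer overlapped without WT replicate 2 or KO replicate 2. Without WT replicate 2 this rested on 2 counts in KO replicate 2 against 0 in WT replicate 1, both not detectable by the floor of 3 counts. Aldh9a1, Akr1a1 and Cbr1 were lower without overlap when WT replicate 1 was left out.

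The log2 fold change changed sign for Aldh9a1 with limma-voom (5.25) and without WT replicate 2 (14.98), and for Cbr1 with limma-voom (0.21) and without WT replicate 2 (13.17). Without WT replicate 1 they were -1.70 and -1.80. The cause was not tested for limma-voom. Without WT replicate 2 the lone WT library was at 0 for both genes and was assumed to vary like the KO libraries. The median log2 fold change of all genes, 0.78, moved by 0.46 with RLE, -0.49 with upper-quartile factors and -0.65 with library totals alone, and member changes kept their direction under these scalings. That median was 3.56 with DESeq2, -0.30 with limma-voom, and 6.42 and 6.32 without WT replicates 1 and 2. DESeq2 was run without the filter on low counts, and the filter was applied anew when a library was left out. The fits with DESeq2 or with a library left out therefore covered other sets of genes than the main fit. Above 10 counts in place of 3 there were 17 member and library combinations in place of 21. With a prior count of 0.5, 5 of the 6 genes nearest to Aldh3b1 and Akr1b3 were shared. No member passed a filter of 10 counts in every library, and Akr1b3 had no fit without KO replicate 1 or 3, nor Cbr1 without KO replicate 3.

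Replicate numbers 1 and 2 occur in both genotypes, but no label says what they share, and the differences between them correlated at 0.18 across genes. In a fit with a replicate block, 0 genes, 0 members and 0 list genes were called. Replicate number 3 occurs in KO alone, so KO replicate 3 did not inform the genotype difference in that fit. Among the members, the log2 fold change of Akr1a1 moved most, to -13.15, and those of Akr1b3, Cbr1 and Aldh2 were 7.89, -3.97 and 1.59.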
